A study of Arabidopsis thaliana with 45 samples.

Results

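A set of 674 genomic regions carried an H3K27me3 peak in every control library and in no library of the FIE-deficient lines amiR-fie-es and SSTS/AAAA of Arabidopsis thaliana. They were taken from 5002 recurrent control regions, of which they were 13.5% by number and, at 245082 of 3274271 bases, 7.49% by length. The members were chosen by measured peak positions. A base of the 5 nuclear chromosomes counted as recurrent when peaks of all 3 Ctrl and all 3 GFP-FIE libraries covered it, gaps of up to 100 bp were joined, and stretches of at least 200 bp were kept. A recurrent region is called lost here when no base of it lay under a peak of any of the 6 FIE-deficient libraries, which says that no peak was called there and does not show that the mark was absent. The regions with a peak in all 6 FIE-deficient libraries, called kept here, numbered 1032 and are the main comparison.

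H3K27me3, trimethylation of lysine 27 on histone H3, is placed by Polycomb repressive complex 2 (PRC2) and marks silenced genes, many of which act at other stages or in other organs. FIE is the WD40-repeat subunit of plant PRC2 and is needed for the activity of the complex. The TOR kinase links nutrient status to growth, and AZD8055 and Torin2 are inhibitors of it.

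The series holds 45 libraries in groups of 3. For RNA and H3K27me3, the aerial part of 2-week-old plants on solid medium came from amiR-fie-es, in which oestradiol (10 mM as the labels write it) given from the start induces an artificial microRNA against FIE, with the wild type Col-0 (Ctrl) as its control. SSTS/AAAA is the fie mutant complemented with a phosphorylation-site mutant of GFP-tagged FIE, and its control GFP-FIE is the fie mutant complemented with wild-type tagged FIE. For H3K27me3 alone, 7-day-old seedlings in liquid medium came from tor-es, which received oestradiol on day 3 to deplete TOR, with Col-0 as its control, and from Col-0 given 10 µM AZD8055, 10 µM Torin2 or DMSO from day 4 for 3 days. H3K9me2, a mark of silent transposons, was profiled in 7-day-old tor-es and Col-0. The labels do not say whether Ctrl or 7-day Col-0 received oestradiol, so the inducer and the silenced gene cannot be told apart. Nor do they say how many independent lines stand behind each genotype, or whether replicates were separate cultures. The p-values therefore speak only of the spread among the libraries at hand, which may be technical.

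FIE transcript checked the labels. It stood at 9.10, 8.79 and 8.81 CPM (read counts scaled to a common library size) in amiR-fie-es, against 15.7, 18.3 and 18.6 CPM in Ctrl (log2 fold change -0.98 ± 0.07 SE, edgeR adjusted p = 4.06e-16). In SSTS/AAAA it stood at 12.2, 11.7 and 11.4 CPM, against 25.2, 27.6 and 23.8 CPM in GFP-FIE (-1.11 ± 0.06, edgeR adjusted p = 8.28e-20). The FIE transcript was thus lower in both lines with no overlap between groups, in SSTS/AAAA too, where the label names a protein change. Total RNA counts ran from 28866845 to 34543091 per library, while the read depth behind the peak lists is unknown. The number of H3K27me3 peaks differed widely: 1847 to 1945 per amiR-fie-es library against 8311 to 8909 in Ctrl, and 4116 to 4296 in SSTS/AAAA against 7207 to 7471 in GFP-FIE. How far loss of a peak followed from the calling threshold in each library was not tested.

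Nearly all recurrent regions without a peak in SSTS/AAAA had none in amiR-fie-es either. Beside the 674 lost regions, only 40 without an SSTS/AAAA peak had one in 1 amiR-fie-es library, 6 in 2 and 1 in 3. The reverse did not hold, as 680 regions had a peak in a single SSTS/AAAA library and in no amiR-fie-es library, 527 in 2 and 769 in all 3. Lack of an amiR-fie-es peak was common throughout. Single amiR-fie-es libraries had a peak at 32.1%, 33.2% and 34.4% of all recurrent regions, and SSTS/AAAA libraries at 71.5%, 70.4% and 70.4%. These counts come from the peaks that chose the regions and are given as a description. At the length limit, the 2 shortest members spanned 200 bp, at chr1:11011968-11012167 and chr1:11999039-11999238, and the 2 longest stretches left out spanned 199 bp, at chr1:24213340-24213538 and chr3:1223536-1223734 (TAIR10 positions of the peak files, used throughout). The recurrent regions that came closest to membership were chr2:19604033-19604232 and chr5:15864791-15865023, of which 1 and 2 bases lay under a peak of a FIE-deficient library.

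Lost regions were short and only moderately enriched. Their median length was 315 bp (interquartile range 249 to 430, longest 1164), against 937 bp for kept regions and 568 bp for all recurrent regions. The median fold enrichment over local background, the authors' value for each peak taken as the median over the 6 control libraries, was 3.75 in lost regions, 5.13 in kept regions and 4.24 in all. In the single libraries, the lost regions had a median fold of 3.78, 3.85 and 3.84 in Ctrl and of 3.59, 3.55 and 3.55 in GFP-FIE. The kept regions ranged from 4.98 to 5.31 over the same 6 libraries, so every library put the lost regions lower. These values come from the peaks that chose the regions and are given as a description.

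The share lost declined steeply with length and less evenly with enrichment. Length here is that of the stretch shared by all 6 control libraries, not of single peaks. A single base under a peak of any FIE-deficient library excluded a region, so longer regions had more bases at which to be excluded. The part of this rule in the decline was not tested. Of the 782 recurrent regions under 300 bp, 302 were lost (38.6%). The share was 23.9% from 300 to under 400 bp, 16.3% from 400 to under 500 bp, 6.74% from 500 to under 750 bp and 1.85% from 750 to under 1000 bp. Of the 823 regions of 1000 bp or more, 6 were lost (0.729%). Across fold classes the share stayed between 15.1% and 24.1% up to a fold of 5, and was 3.26% (49 of 1501) at a fold of 5 or more.

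**Figure D1:**
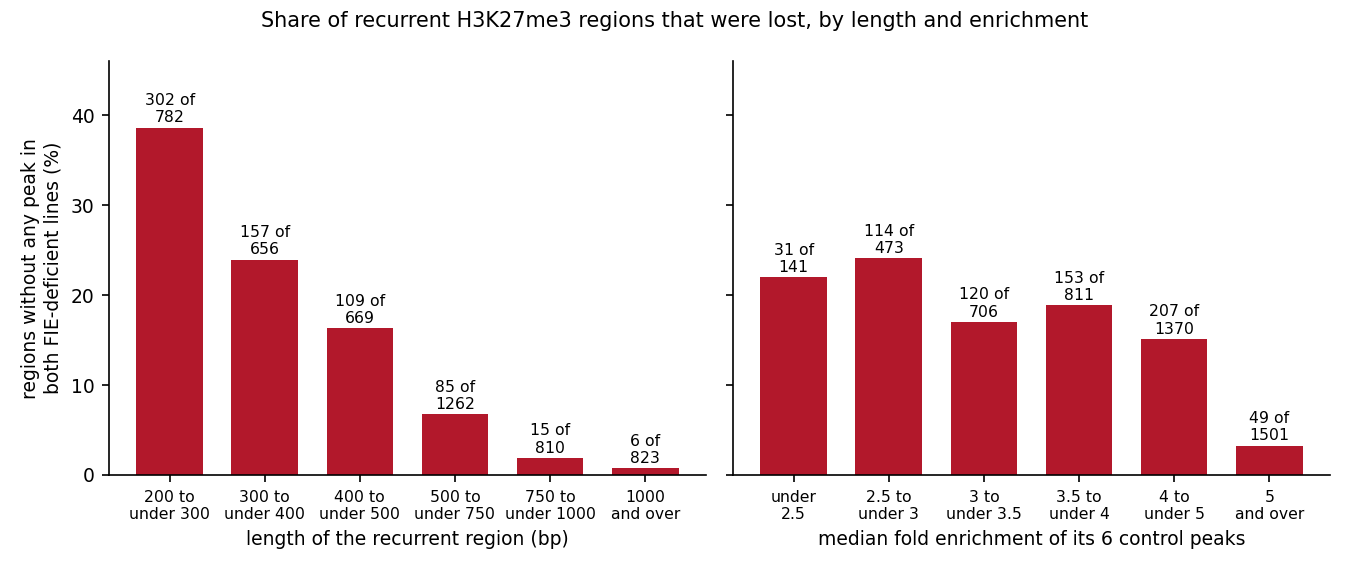
The bars give the percentage of recurrent control regions that had no peak in any amiR-fie-es or SSTS/AAAA library, by region length in bp (left) and by the median fold enrichment of the overlapping peaks in the 6 control libraries (right), with the counts above each bar. The share declined from 38.6% in the shortest class to 0.729% in the longest, and was lowest, at 3.26%, in the highest fold class.

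Members differed in how close the nearest remaining peak lay. The nearest peak of a FIE-deficient library lay within 1 kb of 29.2% of lost regions and beyond 10 kb of 30.6%, with a median distance of 4423.5 bp. The region at TLP5, a tubby-like protein gene, lay 70053 bp from the nearest one, and the region at AT5G39890, annotated as plant cysteine oxidase PCO2, 9878 bp. By contrast, the 206 bp at FLC, the repressor of flowering, lay 209 bp from a peak of SSTS/AAAA replicate 1, and another 695 bp of that gene were recurrent and not lost. All 5 chromosomes held members, from 10.7% of the recurrent regions on chromosome 2 (87 of 815) to 15% on chromosomes 1 (201 of 1342) and 5 (170 of 1134).

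**Figure D2:**
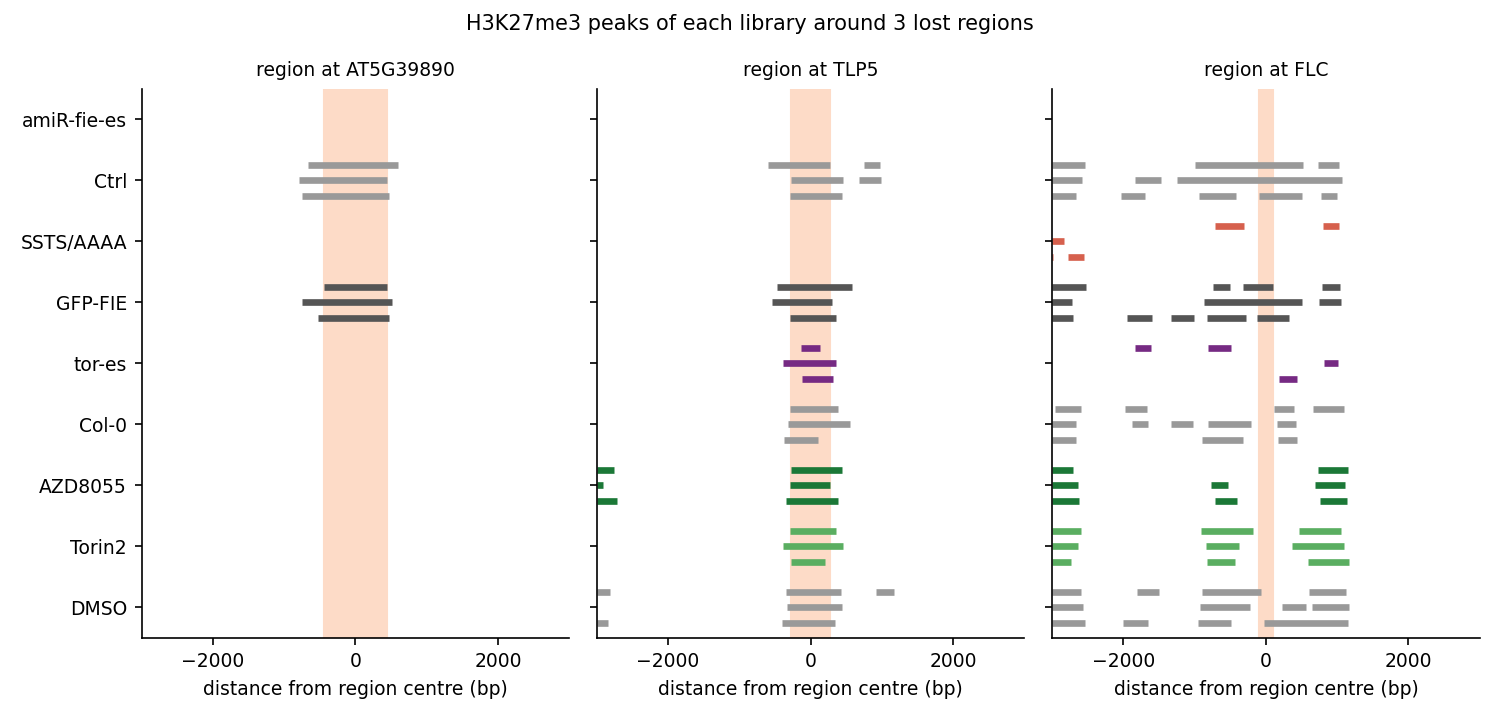
Horizontal bars are the H3K27me3 peaks of each library (3 rows per group) by distance in bp from the centre of the lost regions at AT5G39890, TLP5 and FLC, and the shaded band is the lost region. No amiR-fie-es or SSTS/AAAA peak fell in the bands, the AT5G39890 region had no peak in any 7-day library, the TLP5 region had one in all of them, and 1 SSTS/AAAA library kept peaks close to the FLC region.

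The longest members show how the mark was distributed in single libraries. The longest, at chr4:16455634-16456797, overlapped AT4G34419 and had folds of 5.74, 5.66 and 5.27 in Ctrl and of 4.0, 4.43 and 5.0 in GFP-FIE. The region at chr5:19860704-19861675 over AT5G48980 had the highest median fold of the 10 longest, 6.54, with 6.54, 7.10 and 6.55 in Ctrl and 5.58, 6.85 and 4.94 in GFP-FIE. The region at chr1:22744251-22745402 over ENT7, an equilibrative nucleoside transporter gene, was nearly as long at 1152 bp but had folds of only 2.88 to 3.35 in the 6 libraries. Long members were therefore not uniformly strong. The others of the 10 lay over VPS24.2, an ESCRT-III component gene (chr3:16460147-16461200), TS1, a terpene synthase gene (chr4:9009809-9010843), RLP43, a receptor-like protein gene (chr3:10897695-10898724), the pseudogene AT3G21040 (chr3:7372867-7373867), AT2G37540 (chr2:15752213-15753192), TBL34 (chr2:16056718-16057686) and AT1G62660 (chr1:23201892-23202833).

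Lost regions lay within genes, though less fully than kept ones: 82.1% of their bases were inside annotated genes, against 90.0% in kept regions and 87.5% in all recurrent regions. A gene was absent from 104 lost regions (15.4%), against 4.26% of kept regions. H3K9me2 peaks touched 3 lost regions (0.445%), at AT1G67870, AT3G01345 and AT3G55513, in at most 2 of the 6 H3K9me2 libraries each, against 6.01% of kept regions and 1.38% of all. At least 200 bp of lost region covered 551 genes, of which 504 were protein-coding, and 108 of these genes also carried recurrent bases that were not lost. Gene positions come from the annotation of TAIR10.1.

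The genes for which H3K27me3 is best known in plants were rarely among them. In 9 lists of developmental, hormone and chromatin genes, 79 of 122 genes carried a recurrent region, and 5 of those 79 carried a lost region (6.33%), against 551 of the 4105 genes with recurrent regions (13.4%). A kept region was carried by 44 of the 79 (55.7%), against 24.6% of the 4105. The 5 were FLC and MAF4, floral repressors of the MADS-box family, YAB5, a YABBY factor of leaf polarity, BBM, an AP2-domain factor that promotes embryo identity, and AGL15, a MADS-box factor of embryos. By list they were 2 of 25 floral organ and flowering-time genes with recurrent regions (8%), 1 of 18 meristem, boundary and homeobox genes (5.56%) and 2 of 9 embryo and seed regulators (22.2%). No lost region was carried by the 9 seed storage, 10 hormone, 6 root identity, 3 PRC2 and 1 PRC1 genes with recurrent regions, and none of the H3K27 demethylase genes carried a recurrent region. Among gene families drawn from the annotated names, lost regions covered 7 of 42 MADS-box, 4 of 33 WRKY, 4 of 43 homeobox, 4 of 58 MYB, 3 of 41 NAC, 7 of 84 cytochrome P450 and 8 of 81 transporter genes with recurrent regions. The share was 16.7% for MADS-box genes and lay between 6.90% and 12.1% in the other families. No test of these shares was made, and the length of the domains over these genes was not taken into account.

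Most genes under lost regions were silent or nearly so in Ctrl. Of the 506 that the count table held, 263 (52.0%) stood below 0.1 CPM per kb of transcript in Ctrl, against 35.3% of all genes. Genes under kept regions were alike in this, with 52.6% below 0.1 CPM per kb. No count in any Ctrl library was found for 89 of the 506 and for 6608 of all 32678 genes, so this was no more common among the members. Only 40 exceeded 10 CPM per kb (7.91%), against 27.9% of all genes. Enough counts for testing were reached by 225 of the 506 (44.5%). Of these, 190 reached it in the control libraries alone, and 35 only with the FIE-deficient libraries, so these 35 were tested because they were higher there.

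Genes under lost regions changed in both directions in amiR-fie-es. Against Ctrl, 96 of the 225 tested genes rose and 74 fell (edgeR quasi-likelihood test, adjusted p below 0.05), where 29.3% of all 20046 genes tested rose and 30.0% fell. Among the 190 that reached the count minimum in controls alone, 73 rose and 72 fell (38.4% and 37.9%). All genes that reached it so gave 28.6% and 31.1%. At least 2-fold changes were relatively more common: 61 of the 225 rose and 33 fell by that much, 27.1% and 14.7% of the tested members, against 4.63% and 5.25% of all genes. Among the 190 genes that reached the minimum in controls alone, 39 rose and 31 fell at least 2-fold (20.5% and 16.3%), against 2.96% and 5.34% of all genes that did so. Their median log2 fold change was 0.04, against 0.0049 for all those genes. Genes under kept regions also moved both ways, with 92 of 436 up and 81 down at least 2-fold (21.1% and 18.6%). Among the 352 of them that reached the minimum in controls alone, 10.5% rose and 22.4% fell by that much. In that subset, falls were thus the more common under kept regions and rises under lost regions.

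In SSTS/AAAA the balance leaned further towards rises. Against GFP-FIE, 107 of the 225 rose and 64 fell, where 33.3% and 32.3% of all genes did. Among the 190 that reached the count minimum in controls alone, 79 rose and 64 fell (41.6% and 33.7%). All genes that reached it so gave 31.9% and 33.6%. At least 2-fold, 79 of the 225 rose and 28 fell (35.1% and 12.4%), against 7.65% and 4.74% of all genes. Among the 190 genes that reached the minimum in controls alone, 52 rose and 28 fell by that much (27.4% and 14.7%), against 5.21% and 4.87% of all genes that did so. Their median log2 fold change was 0.13, against 0.0022 for all those genes. Genes under kept regions gave 163 up and 56 down of 436 (37.4% and 12.8%), so the shares over lost and kept regions lay close together. In bulk samples, a change in RNA per cell and a change in the share of cells that express a gene cannot be told apart.

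Rises in both lines were more common among the members than among all genes, and falls in both were so only when limited to at least 2-fold. Of the 225, 79 rose in both (35.1%), where 17.8% of all tested genes did, and 45 fell in both (20.0%), where 20.3% did. Of the tested genes under kept regions, 31.0% rose in both and 24.5% fell in both. Among the 190 genes that reached the count minimum in controls alone, 60 rose in both (31.6%) and 45 fell in both (23.7%). All such genes gave 17.0% and 21.1%. At least 2-fold in both, 47 of the 225 rose (20.9%) and 14 fell (6.22%), against 3.30% and 2.21% of all tested genes. Tested genes under kept regions lay close to the members, at 19.7% and 7.57%. All tested genes with recurrent regions gave 17.0% and 6.77%. Among the 190 genes that reached the count minimum in control libraries alone, 30 rose by that much in both (15.8%) and 14 fell (7.37%). All such genes gave 1.90% and 2.31%, and such genes under kept regions 9.09% and 9.38%. Another 15 of the 225 were called in opposite directions (6.67%), where 7.10% of all tested genes were. The comparisons have different control libraries, but the genes were selected on peaks of the same lines. The effect itself differed between the lines for 113 members (edgeR, difference of effects), 69 higher in SSTS/AAAA and 44 lower (30.7% and 19.6%), where 23.5% and 22.0% of all genes were. Between the controls, GFP-FIE against Ctrl, 41 members rose and 38 fell (18.2% and 16.9%), where 14.4% and 15.3% of all genes did. At least 2-fold, 6 rose and 14 fell (2.67% and 6.22%), against 0.813% and 1.96% of all genes. Genes under kept regions gave 2.75% and 8.49%, so such differences between the controls were more common in both sets than among all genes.

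**Figure D3:**
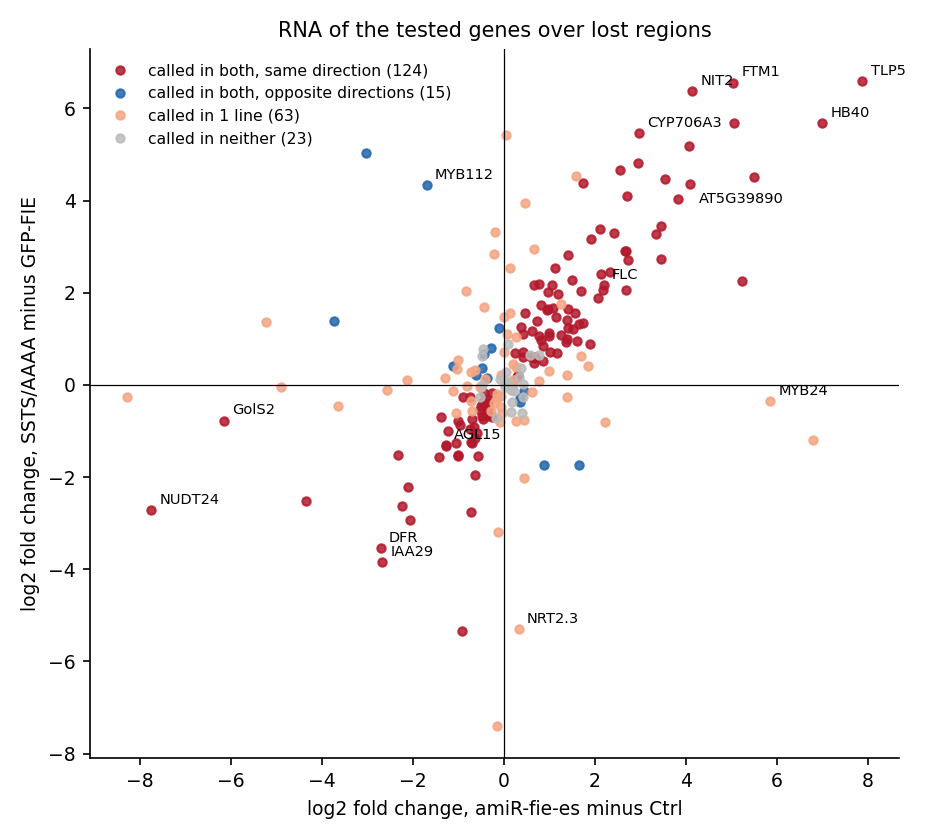
Each point is one of the 225 tested genes over lost regions, placed by its log2 fold change in amiR-fie-es minus Ctrl (horizontal) and in SSTS/AAAA minus GFP-FIE (vertical), and coloured by whether edgeR's adjusted p was below 0.05 in both, 1 or neither comparison. Of the 139 genes called in both, 124 moved in the same direction and 15 in opposite directions. The 225 include 35 genes that reached the count minimum only with the FIE-deficient libraries.

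Among the genes that rose most in both lines, several stood near 0 in the controls. Of the 12 largest rises, 7 were of genes that reached the count minimum only with the FIE-deficient libraries (TLP5, HB40, AT5G39890, AT1G22440, AT1G16950, MPL1 and AT2G43140). Being tested at all required these to be higher there, so their fold changes are given as a description with no p. TLP5 had 6.46, 6.35 and 7.00 CPM in amiR-fie-es, against 2 counts in the 3 Ctrl libraries together, a ratio of 273 (95% counting interval 75.3 to 2259). It had 8.94, 8.69 and 7.78 CPM in SSTS/AAAA, against 0.108, 0.141 and 0 CPM in GFP-FIE (log2 fold change 6.58 ± 0.25). Every FIE-deficient library thus lay far above every control library. AT1G22440 and AT1G16950 behaved alike: AT1G22440 had a ratio of 50.1 in amiR-fie-es over 3 Ctrl counts (interval 16.9 to 245), and AT1G16950 one of 38.2 over 2 Ctrl counts (interval 10.3 to 320). In SSTS/AAAA, AT1G16950 had a ratio of 68.2 over 1 GFP-FIE count (interval 11.9 to 2723), and the log2 fold change of AT1G22440 was 4.51 ± 0.43. Counting intervals cover counting error only.

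HB40, a homeodomain-leucine zipper factor, was as even. It had 8.17, 8.21 and 8.21 CPM in amiR-fie-es, against 0.072, 0 and 0.109 CPM in Ctrl (log2 fold change 6.99 ± 0.24). In SSTS/AAAA it had 9.07, 9.64 and 9.59 CPM, against 0.179, 0.176 and 0.187 CPM in GFP-FIE (5.67 ± 0.19). Its lost region spanned 236 bp at chr4:17314707-17314942, and 456 further bp of the gene were recurrent and not lost. NAC047, a NAC-domain factor whose 480 bp region was the only recurrent stretch of the gene, had 8.47, 7.76 and 8.86 CPM in amiR-fie-es, against 0.754, 0.663 and 0.727 CPM in Ctrl (3.54 ± 0.16). In SSTS/AAAA it had 6.43, 5.15 and 5.39 CPM, against 0.394, 0.176 and 0.187 CPM in GFP-FIE (4.46 ± 0.21). Both factors stood apart from their controls in all libraries.

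FTM1, NIT2 and CYP706A3 rose in both lines and further in SSTS/AAAA. FTM1, a stearoyl-ACP desaturase gene, had 26.2, 22.3 and 22.9 CPM in amiR-fie-es, against 0.862, 0.736 and 0.581 CPM in Ctrl (log2 fold change 5.03 ± 0.13). It had 47.5, 46.5 and 46.6 CPM in SSTS/AAAA, against 0.897, 0.247 and 0.337 CPM in GFP-FIE (6.56 ± 0.12), and the effects differed by 1.53 (edgeR adjusted p = 0.000123). NIT2, a nitrilase gene, had 6.61, 7.54 and 6.54 CPM in amiR-fie-es, against 0.287, 0.368 and 0.509 CPM in Ctrl, and 22.3, 19.9 and 21.4 CPM in SSTS/AAAA, against 0.430, 0.176 and 0.150 CPM in GFP-FIE (4.14 ± 0.18 and 6.37 ± 0.15). CYP706A3, a cytochrome P450 gene, rose likewise, at 11.7, 11.2 and 11.4 CPM in amiR-fie-es against 1.76, 1.40 and 1.2 CPM in Ctrl, and at 36.3, 35.2 and 34.8 CPM in SSTS/AAAA against 1.08, 0.493 and 0.823 CPM in GFP-FIE (2.97 ± 0.11 and 5.47 ± 0.11). The effects differed by 2.23 for NIT2 (edgeR adjusted p = 1.48e-05) and by 2.5 for CYP706A3 (edgeR adjusted p = 6.25e-13). All 3 genes also carried recurrent bases that were not lost.

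AT5G39890 had the longest lost stretch among these risers, with 881 bp, or 44.0% of the gene, at chr5:15974677-15975557. It had 5.05, 4.92 and 5.72 CPM in amiR-fie-es, against 0.323, 0.258 and 0.327 CPM in Ctrl (log2 fold change 4.09 ± 0.21). It had 8.28, 7.53 and 7.27 CPM in SSTS/AAAA, against 0.574, 0.282 and 0.262 CPM in GFP-FIE (4.35 ± 0.18). The effects differed by 0.26, with no p given for this gene. MPL1, a lipase gene named for its induction by aphids, the pseudogene SADHU5-1, a non-coding retrotransposon, and AT2G43140 complete the 12 largest rises. Their mean levels were 2.69, 9.92 and 2.45 CPM in amiR-fie-es, against 0.158, 0.690 and 0.316 CPM in Ctrl, and 8.44, 17.3 and 5.21 CPM in SSTS/AAAA, against 0.229, 1.06 and 0.180 CPM in GFP-FIE.

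**Figure D4:**
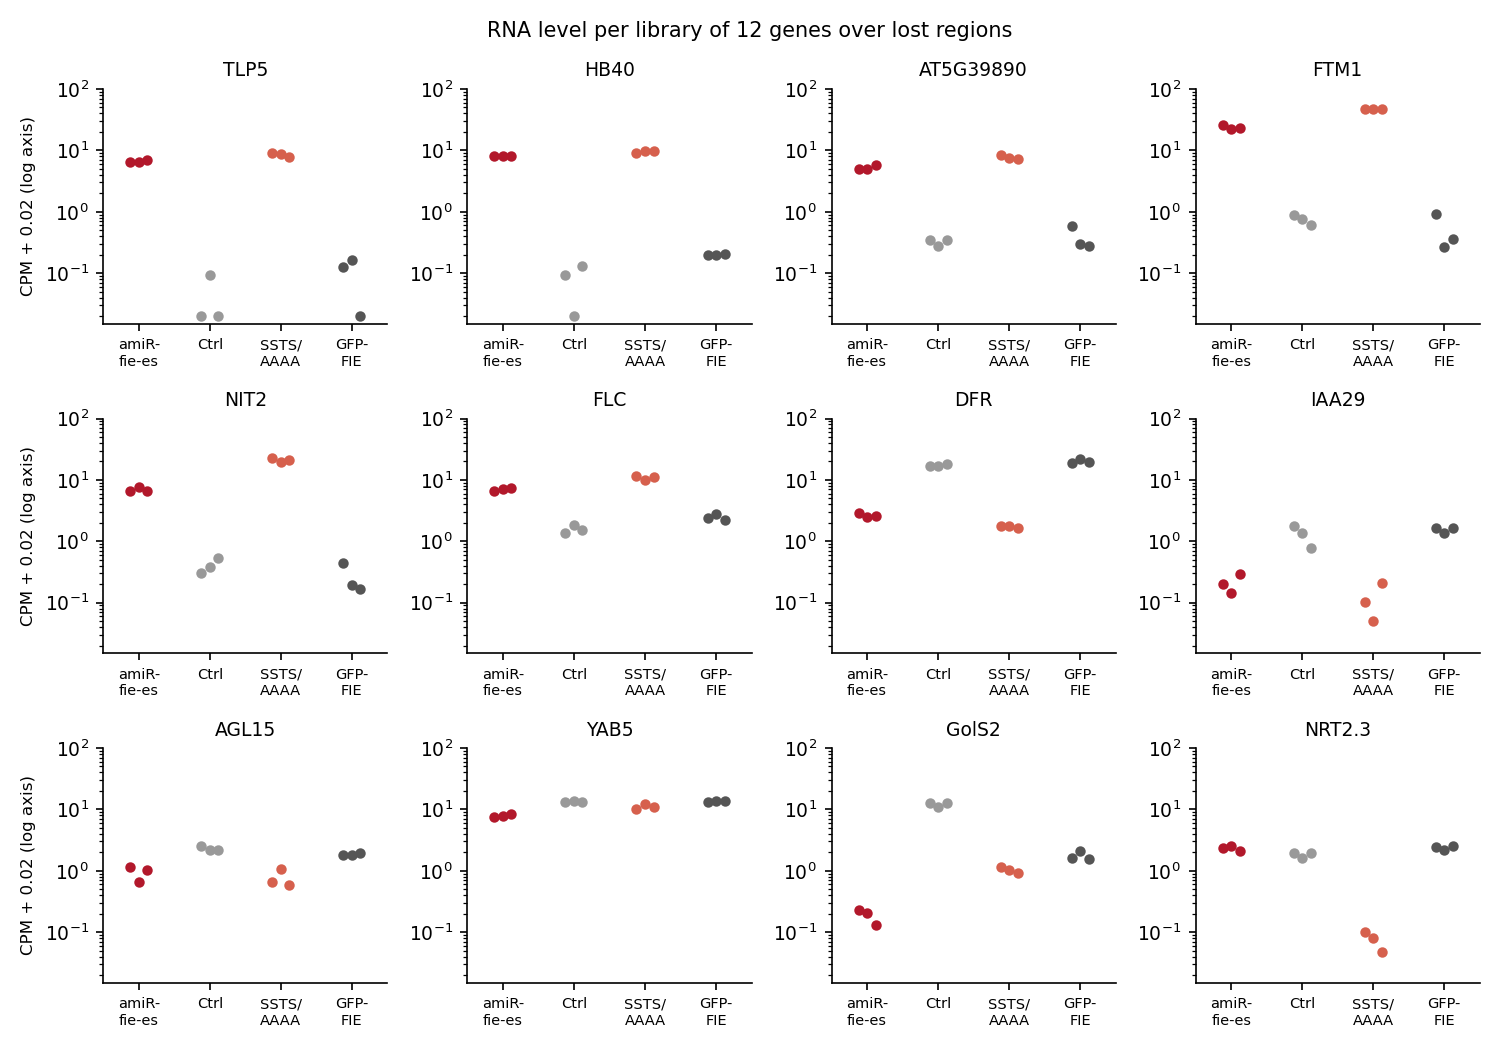
Each point is the CPM of 1 RNA library, with 0.02 added so that 0 can be drawn on the log axis, for 12 genes over lost regions in amiR-fie-es, Ctrl, SSTS/AAAA and GFP-FIE (3 libraries each). TLP5, HB40, AT5G39890, FTM1, NIT2 and FLC lay higher in both FIE-deficient lines, DFR, IAA29, AGL15 and YAB5 lower, GolS2 was high in Ctrl only, and NRT2.3 was low in SSTS/AAAA only.

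Other members fell although their peak was missing. DFR, the dihydroflavonol reductase of anthocyanin synthesis, carried 2 lost regions, at chr5:17164688-17165133 and chr5:17165352-17165662. It had 2.85, 2.47 and 2.57 CPM in amiR-fie-es, against 16.7, 16.8 and 18.3 CPM in Ctrl (log2 fold change -2.71 ± 0.09, edgeR adjusted p = 2.29e-28). It had 1.79, 1.73 and 1.64 CPM in SSTS/AAAA, against 18.9, 21.8 and 19.4 CPM in GFP-FIE (-3.54 ± 0.09, edgeR adjusted p = 5.54e-32). The groups were well apart in both lines. IAA29, an Aux/IAA repressor of auxin response, fell by 2.68 ± 0.36 on the log2 scale in amiR-fie-es and by 3.84 ± 0.39 in SSTS/AAAA. It had 0.180, 0.122 and 0.274 CPM in amiR-fie-es against 1.72, 1.33 and 0.763 CPM in Ctrl, and 0.082, 0.030 and 0.189 CPM in SSTS/AAAA against 1.61, 1.34 and 1.61 CPM in GFP-FIE. AT1G66090 fell by 4.35 ± 0.22 and 2.53 ± 0.23 in the same comparisons, and AT5G59330 by 0.93 ± 0.18 and 5.34 ± 0.35. NUDT24, a Nudix hydrolase gene, had no count in amiR-fie-es, where it was at least 29.4-fold lower than in Ctrl (floor of 3 counts over the group), and fell by 2.72 ± 0.51 in SSTS/AAAA.

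GolS2, a galactinol synthase gene, is a case where the control lines differed. It had 0.210, 0.183 and 0.109 CPM in amiR-fie-es, against 12.7, 11.1 and 12.5 CPM in Ctrl. In SSTS/AAAA it had 1.13, 1.01 and 0.916 CPM, against 1.61, 2.08 and 1.53 CPM in GFP-FIE (log2 fold change -0.78 ± 0.19). GFP-FIE was itself lower than Ctrl by 2.79 on the log2 scale (edgeR adjusted p = 4.94e-22), so the size of the fall in amiR-fie-es rests on the level in Ctrl. MYB112, a MYB factor, was likewise lower in GFP-FIE than in Ctrl by 5.50 (edgeR adjusted p = 1.96e-14). It had 0.901, 0.458 and 0.793 CPM in amiR-fie-es, against 2.44, 2.39 and 2.22 CPM in Ctrl, but 1.32, 0.744 and 1.08 CPM in SSTS/AAAA, against 0.108, 0 and 0.037 CPM in GFP-FIE.

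For NRT2.3 and AT4G22517 the controls lay closer together, GFP-FIE minus Ctrl being 0.37 ± 0.18 and -0.53 ± 0.11 on the log2 scale. NRT2.3, a member of the nitrate transporter family, had 2.31, 2.47 and 2.11 CPM in amiR-fie-es, against 1.90, 1.62 and 1.96 CPM in Ctrl, a difference that did not pass the test (log2 fold change 0.33 ± 0.17, edgeR adjusted p = 0.103). In SSTS/AAAA it had 0.082, 0.060 and 0.027 CPM, against 2.44, 2.19 and 2.47 CPM in GFP-FIE (-5.30 ± 0.33, edgeR adjusted p = 2.81e-18), so the gene fell in that line, with a difference of effects of -5.63 (edgeR adjusted p = 4.38e-16). AT4G22517 showed the same contrast, at 7.15, 6.72 and 7.14 CPM in amiR-fie-es against 7.69, 8.10 and 7.52 CPM in Ctrl, and with 3 counts in SSTS/AAAA against 446 in GFP-FIE (GFP-FIE higher by a ratio of 192, 95% counting interval 65.2 to 934). MYB24, a MYB factor of stamens that reached the count minimum only with the FIE-deficient libraries, was higher in amiR-fie-es, at 1.02, 0.824 and 0.930 CPM, against 1 count in Ctrl (ratio 76.4, interval 13.4 to 3049), with 0.137, 0.119 and 0.081 CPM in SSTS/AAAA against 0.143, 0.211 and 0.075 CPM in GFP-FIE. GFP-FIE, with 12 MYB24 counts, was also above Ctrl (ratio 11.9, interval 1.77 to 510). The lost regions of MYB24 and AT4G22517 also lie in AT5G40348 and AT4G22510, and reads of overlapping genes cannot be told apart because none of the sources used here gives the strand setting of the counting.

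The developmental regulators under lost regions did not move as a group. FLC had 6.67, 7.14 and 7.41 CPM in amiR-fie-es, against 1.33, 1.80 and 1.53 CPM in Ctrl (log2 fold change 2.19 ± 0.13, edgeR adjusted p = 3.83e-19). It had 11.4, 9.85 and 11.2 CPM in SSTS/AAAA, against 2.33, 2.71 and 2.17 CPM in GFP-FIE (2.17 ± 0.11, edgeR adjusted p = 1.25e-21). FLC rose about equally in both lines, its lost stretch being 3.40% of the gene, shared with the overlapping gene AT5G01675. AGL15 fell, at 1.14, 0.641 and 1.01 CPM in amiR-fie-es against 2.48, 2.14 and 2.18 CPM in Ctrl, and by 1.30 ± 0.23 on the log2 scale in SSTS/AAAA. YAB5 fell by 0.75 ± 0.07 and 0.27 ± 0.07. MAF4 rose by 0.39 ± 0.13 in SSTS/AAAA (edgeR adjusted p = 0.00643, and 0.378 without replicate 1). It had 1.95, 2.05 and 2.73 CPM in amiR-fie-es against 2.12, 1.95 and 1.53 CPM in Ctrl, which did not pass the test (0.27 ± 0.18, edgeR adjusted p = 0.189, and 0.0453 without replicate 1). BBM had too few counts to be tested, at 3 counts in amiR-fie-es against 4 in Ctrl and 12 in SSTS/AAAA against 7 in GFP-FIE. The whole lists, with or without lost regions, are set against the 29.3% up and 30.0% down of all genes in amiR-fie-es and the 33.3% and 32.3% in SSTS/AAAA. In them, 22 of 27 tested floral genes rose and 3 fell in amiR-fie-es, and 24 rose and 1 fell in SSTS/AAAA. Of 16 tested meristem genes, 4 rose and 3 fell in amiR-fie-es, and 12 rose and 2 fell in SSTS/AAAA. Of 3 embryo regulators 2 rose and 1 fell in each line. Of 2 seed storage genes neither passed the test in amiR-fie-es and both rose in SSTS/AAAA, and of 4 root genes 1 rose and 2 fell in amiR-fie-es, against 0 and 3 in SSTS/AAAA. Among 17 hormone genes 6 rose and 7 fell in amiR-fie-es, and 4 rose and 8 fell in SSTS/AAAA. Of 8 PRC2, 8 PRC1 and 5 demethylase genes, 4, 4 and 1 rose in amiR-fie-es and 1, 0 and 1 fell, while 4, 6 and 0 rose in SSTS/AAAA and 3, 1 and 1 fell. Their part in the results for lost regions was not tested.

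A few genes carried a lost region while being strongly transcribed. The highest level per length in Ctrl belonged to TGG2, a myrosinase gene, with 902, 901 and 915 CPM in amiR-fie-es, against 714, 722 and 750 CPM in Ctrl, and 915, 903 and 905 CPM in SSTS/AAAA, against 778, 788 and 784 CPM in GFP-FIE. Its region had folds of only 1.77 to 2.24 in the control libraries. LTP5, a lipid transfer protein gene, was higher in both lines too, by 0.28 ± 0.03 and 0.17 ± 0.03 on the log2 scale. AT1G67870 was lower in both, at 124, 123 and 123 CPM in amiR-fie-es against 328, 326 and 307 CPM in Ctrl, and at 194, 192 and 196 CPM in SSTS/AAAA against 312, 317 and 313 CPM in GFP-FIE. AT3G05730 fell by 0.73 ± 0.03 in amiR-fie-es and by 2.75 ± 0.04 in SSTS/AAAA. LTPG1, a lipid transfer protein gene, fell by 0.60 ± 0.03 in SSTS/AAAA, and AT5G42530 fell by 0.38 ± 0.04 in amiR-fie-es but rose by 0.15 ± 0.04 in SSTS/AAAA.

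Under the 10 longest regions, RNA was low in most genes. ENT7, VPS24.2, TS1, RLP43 and AT4G34419 stayed below the count minimum, with at most 22 counts in any group of 3 libraries. AT3G21040 rose in both lines, at 4.18, 5.19 and 4.98 CPM in amiR-fie-es against 0.575, 0.295 and 0.545 CPM in Ctrl, and at 8.99, 9.38 and 8.94 CPM in SSTS/AAAA against 0.753, 0.881 and 1.2 CPM in GFP-FIE. AT5G48980 had log2 fold changes of 2.07 ± 0.51 and 1.89 ± 0.40, with no library above 1 CPM, and reached the count minimum only with the FIE-deficient libraries. AT1G62660, with 74.0, 73.6 and 78.7 CPM in amiR-fie-es against 34.6, 30.6 and 35.7 CPM in Ctrl, rose by 1.17 ± 0.04 there and by 0.69 ± 0.04 in SSTS/AAAA. TBL34 fell by 0.34 ± 0.10 in amiR-fie-es, a call lost without replicate 3 (edgeR adjusted p = 0.153), and by 0.62 ± 0.11 in SSTS/AAAA. AT2G37540 rose by 0.43 ± 0.06 in amiR-fie-es. In SSTS/AAAA it fell by 0.14 ± 0.05, and that fall lost its call without replicate 1 or 2 (edgeR adjusted p = 0.0829 and 0.0596) and with DESeq2 (adjusted p = 0.0593).

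The 7-day libraries, which took no part in choosing the regions, ask whether the same regions respond to loss of TOR function. Peaks of tor-es covered 40.4%, 32.4% and 37.3% of lost bases, against 71.3%, 67.4% and 65.0% in Col-0. AZD8055 left 49.7%, 47.5% and 49.2%, and Torin2 69.2%, 67.5% and 65.6%, against 86.4%, 83.9% and 86.0% in DMSO. In every case the treated or depleted libraries lay below all their controls. The mean differences were -31.2 percentage points for tor-es (36.7 ± 4.04% against 67.9 ± 3.16%, SD, n = 3 each), -36.6 for AZD8055 (48.8 ± 1.17% against 85.4 ± 1.34%) and -18.0 for Torin2 (67.4 ± 1.82% against the same DMSO libraries). Kept regions differed less, by -10.2, -14.3 and -3.22 points, and all recurrent regions by -19.8, -23.1 and -7.67 points. With 3 against 3 libraries an exact permutation test cannot go below 0.1, and no p is given for these summed values. At equal dose and time, AZD8055 covered less of the lost bases than Torin2 in every library.

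**Figure D5:**
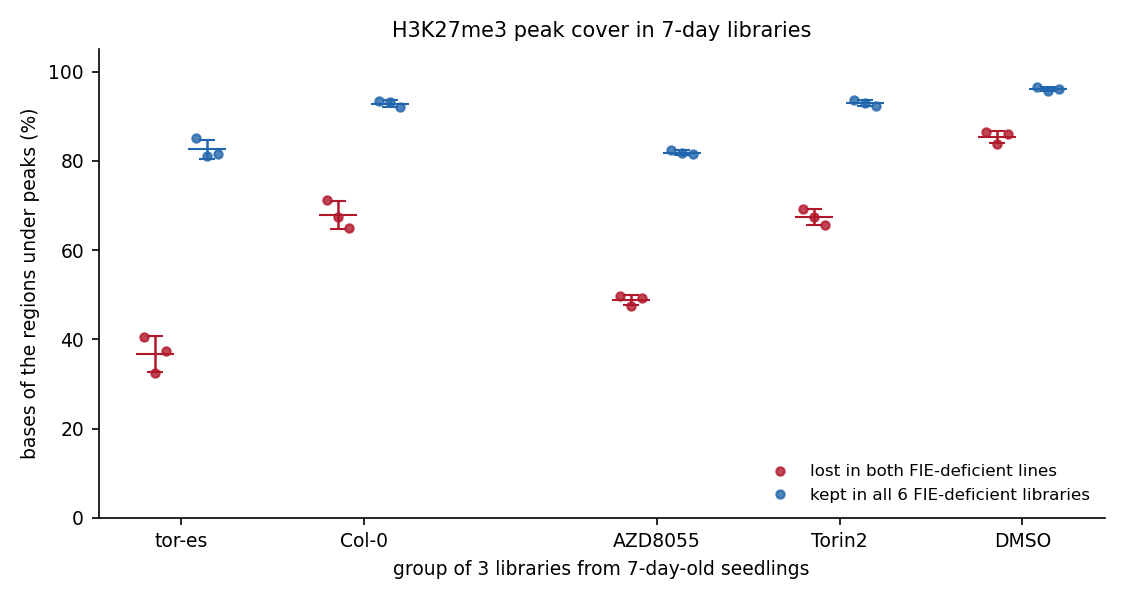
Points give the percentage of bases under H3K27me3 peaks in each 7-day library, for regions lost in both FIE-deficient lines and for regions kept in all 6 FIE-deficient libraries, with the mean (line) and SD (bars) of 3 libraries. Lost regions had means of 36.7% in tor-es against 67.9% in Col-0, and of 48.8% in AZD8055 and 67.4% in Torin2 against 85.4% in DMSO, while the means of kept regions lay between 81.8% and 96.1%.

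Counted by region, 77 of the 674 had a peak in all 3 Col-0 libraries and in no tor-es library (11.4%), where 4.90% of all recurrent regions did. For AZD8055 against DMSO it was 100 (14.8%), where 5.50% of all did, and for Torin2 25 (3.71%), where 1.16% did. Among the 1032 kept regions the numbers were 1, 4 and 0. AZD8055 and Torin2 were set against the same DMSO libraries. Of the 77 and the 100, 14 were shared. They were 14% of the AZD8055 set, near the 11.4% of all 674 regions in the tor-es set, and 18.2% of the tor-es set, near the 14.8% of all 674 in the AZD8055 set.

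The comparison with other recurrent regions was repeated within classes of region length. Among regions of 200 to under 300 bp, the covered share of lost ones differed by -30.8 points for tor-es (33.3 ± 5.50% against 64.1 ± 2.97% in Col-0). The 480 other recurrent regions of that length differed by -26.9 points (48.0 ± 3.00% against 74.9 ± 1.68%). Both sets were measured in the same libraries, so these SDs do not measure the spread of the gap between the sets, which was not tested. The same lost regions differed by -35.7 points for AZD8055 and -18.8 for Torin2, the others by -22.7 and -9.16. From 300 to under 500 bp, the 266 lost regions differed by -31.3, -34.9 and -19.2 points for tor-es, AZD8055 and Torin2, and the 1059 others by -24.2, -22.9 and -9.22. At 500 bp or more, the 106 lost regions differed by -31.5, -40.0 and -15.4 points for tor-es, AZD8055 and Torin2, and the 2789 others by -17.5, -21.8 and -6.32. The median folds of lost and other regions were 3.52 and 3.43 below 300 bp, 3.78 and 3.85 from 300 to under 500 bp, and 4.24 and 4.8 at 500 bp or more. In the longest class, where the gaps for tor-es and AZD8055 were widest, the lost regions were thus also the less enriched ones, and the part of enrichment was not tested. The length classes were chosen after the values had been seen.

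Most of the regions were present in younger wild-type seedlings too, with a peak in all 6 Col-0 and DMSO libraries at 382 of 674 (56.7%), against 95.9% of kept and 85.3% of all recurrent regions. All 15 libraries of 7-day seedlings had a peak at 88 of them (13.1%), against 92.4% of kept and 57.7% of all recurrent regions. The number of peaks ran from 5286 in a tor-es library to 14696 in an AZD8055 library, and its part in these shares was not tested. A further 9 had no peak in any of the 6 wild-type libraries, and 6 of these (0.890% of the 674) had none in the other 7-day groups either, where 0.200% of all recurrent regions had none, AT5G39890 and AT2G43140 among them. At NAC047 a single DMSO library had a peak. At TLP5, VPS24.2 and RLP43, in contrast, all 15 libraries had one, and at AGL15 and the 206 bp stretch of FLC the mark was called in at most 2 of 3 libraries of Col-0 and of DMSO and in none of the others. AT5G39890, AT2G43140 and NAC047, all among the 12 largest rises, thus carried regions that were marked in 2-week-old shoots and hardly or not at all in 7-day-old seedlings, whose tissue, medium and age all differ.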

How the data were processed

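Tools named in the submitters' processing notes are FastQC 0.11.5 and Trimmomatic 0.36 for all libraries, and HISAT2 2.1.0 and the featureCounts program (Subread 1.5.3) for RNA. The authors' RNA table, as deposited, holds whole-number counts per gene without normalisation. The columns headed NST were taken as SSTS/AAAA, since the SSTS/AAAA peak lists carry that name. For ChIP the same notes name BWA 0.7.15-r1142, SAMtools 1.6 and MACS2, and the deposited lists hold peaks called in each library. The deposited lists give each peak a fold enrichment (a ratio to local background) and a −log10 q value, as the authors' MACS2 wrote them. Their lowest −log10 q values ran from 1.31 to 1.71. Input controls and duplicate handling are not given in the sources used here, and TAIR10 and hg19 are both named as builds.

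From these, recurrent and lost regions were built per base as described, in Python 3.11.15 with numpy 2.4.6, and coordinates were made 1-based. Genes came from a RefSeq table of TAIR10.1 without strand, which matched 31912 of 32678 gene IDs. With no shift 87.5% of recurrent bases lay in genes and 367 genes were covered over 90% or more, against at most 66.5% and 179 when genes were shifted by 1000 to 20000 bp. RNA was tested with edgeR 4.0.16 in R 4.3.3 by its quasi-likelihood test, with TMM scaling, filterByExpr, all 12 libraries in one fit by group and Benjamini-Hochberg adjustment over 20046 genes at 0.05. CPM values are counts divided by the TMM-scaled library size and put on a common total. The SE given after ± for RNA is an approximation. It is the absolute log2 fold change divided by the square root of the F statistic of that test. No p-value is given for the share of bases covered, since it would be a p for a score over chosen members. The promoter and motif search planned for these genes was not made.

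Named genes over lost regions were, by rule, the 12 with the largest mean rise among those up at least 2-fold in both lines, the 6 with the largest mean fall in both, the 6 with the highest Ctrl CPM per kb, all members of the gene lists, genes under the 10 longest regions, and the 4 with the largest difference of effects in each direction. The members and lists were chosen with earlier results of these data known. Alternatives were another scaling, filter and tool (DESeq2 1.42.0), a replicate block, each replicate left out, and other thresholds for peaks, regions and genes.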

Additional observations from a re-analysis of the deposited data

Results flagged for a closer look

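The RNA effect differed between the lines for 27 of the 41 tested among the 47 named genes over lost regions (65.9%), by edgeR's test of the difference of effects, given here as the log2 fold change of SSTS/AAAA minus GFP-FIE less that of amiR-fie-es minus Ctrl. It was positive for AT5G44440 (8.07), AT5G44310 (8.01), AT5G22470 (6.59), MYB112 (6.04), GolS2 (5.38), NUDT24 (5.03), CYP706A3 (2.5), NIT2 (2.23), AT2G43140 (1.88), AT1G66090 (1.82), FTM1 (1.53), NAC047 (0.92), AT1G67870 (0.69), AT5G42530 (0.53) and YAB5 (0.48). It was negative for AT5G40348 (-7.99), AT4G22517 (-7.24), MYB24 (-6.21), NRT2.3 (-5.63), AT5G59330 (-4.42), AT3G05730 (-2.02), DFR (-0.83), AT2G37540 (-0.57), LTPG1 (-0.57), AT1G62660 (-0.48), LTP5 (-0.11) and TGG2 (-0.10). The rule for named genes picked 8 of them for this difference. Without these, 19 of 33 differed (57.6%), against 45.5% of all tested genes. Most of the 33 were still named for large rises, large falls or high Ctrl levels in the same RNA data. The shares are therefore not like for like, and no excess is read from them. Some of the 27, such as AT2G43140 and MYB24, reached the count minimum only with the FIE-deficient libraries, so their differences are descriptions. Fitted values of genes with 3 or fewer counts in a group depend on the prior count. These were AT5G44440, with 1 count in amiR-fie-es and 2 in GFP-FIE, AT5G44310, with 0 in amiR-fie-es and 1 in each of SSTS/AAAA and GFP-FIE, AT5G22470, NUDT24, AT5G40348, AT4G22517 and MYB24. AT5G44310 and AT5G22470, a poly(ADP-ribose) polymerase gene, had 102 and 72 counts in Ctrl and 1 each in GFP-FIE, so for them, as for GolS2 and MYB112, the controls differed strongly too. For amiR-fie-es, AT5G44310 was at least 42.3-fold lower than in Ctrl and AT5G40348 at least 12.1-fold higher, with a floor of 3 counts over the group.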

How the results depend on the processing

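Counts of genes that changed moved with how many genes were taken in, and with stricter cover or length the balance of rises and falls moved too. In the main run, with 551 genes, 96 rose and 74 fell in amiR-fie-es, 107 and 64 in SSTS/AAAA, and 41 and 38 in GFP-FIE. Where lost regions had to cover 50% of the gene, 65 genes remained, of which 5 rose and 1 fell in amiR-fie-es, 6 rose and 0 fell in SSTS/AAAA, 2 rose and 0 fell in GFP-FIE, and 1 differed between the lines. With regions of at least 500 bp there were 106 regions and 95 genes, and the same counts were 19, 10, 22, 11, 11, 1 and 12. Keeping only control peaks with −log10 q of at least 5 gave 189 lost regions. At that q the covered share differed by -24.5 points for tor-es, -42.1 for AZD8055 and -24.1 for Torin2. Counted as regions with a covered base it differed by -31.1 for AZD8055 and -14.4 for Torin2, and over regions of at least 500 bp by -40.0 and -15.4. Leaving out 1 library gave 682 to 934 lost regions, most without SSTS/AAAA replicate 1. Leaving out 1 replicate gave 88 to 91 rises and 66 to 67 falls in amiR-fie-es, 99 to 108 and 57 to 61 in SSTS/AAAA, 31 to 32 and 28 to 35 in GFP-FIE, and 94 to 99 differences between lines, and covered shares of -33.1 to -29.0 for tor-es, -37.3 to -35.9 for AZD8055 and -18.9 to -17.1 for Torin2. MAF4 ranged from -0.027 (without replicate 3, edgeR adjusted p = 0.930) to 0.47 (without replicate 1) in amiR-fie-es. The cause was not tested. Over the named genes, 564 values kept direction and call, 7 lost the call, 2 gained it and 1 reversed its direction. With DESeq2, 85 of the 96 rises in amiR-fie-es and 100 of the 107 in SSTS/AAAA were shared. Deviations of same-numbered RNA replicates had correlations of -0.0425 to 0.0289, which show no pairing by number but cannot exclude one. With the replicate block 95 rose and 73 fell in amiR-fie-es and 107 and 63 in SSTS/AAAA. Genes whose start lies in a lost region were not run as an alternative, since the gene table holds no strand. Peak lists without depth limit any statement on absence of the mark.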
